A study of Mus musculus with 2 samples.

Results

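Immunoglobulin variable (V) segments were measured in the spleen of newborn mice. The set holds every gene of the deposited gene tables whose Ensembl identifier carries a GENCODE symbol starting with Ighv, Igkv or Iglv and the class of immunoglobulin V gene. This gave 213 members of 43346 Ensembl genes. Of these, 113 belong to the heavy chain locus Ighv on chromosome 12, 97 to the kappa light chain locus Igkv on chromosome 6 and 3 to the lambda light chain locus Iglv on chromosome 16. The number after the locus name is the V family, which groups segments of similar sequence, and the members fall into 38 families (16 Ighv, 19 Igkv and 3 Iglv).

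Each V segment encodes a leader peptide and most of the variable domain of an antibody chain. In a developing B cell the RAG recombinase joins a V segment to a J segment in the light chain loci, and to a joined D and J segment in the heavy chain locus. The joined exon is then spliced to a constant region such as Ighm or Igkc. Unjoined V segments can also be transcribed from their own promoters, and in gene tables these reads cannot be told apart from reads of joined chains.

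The samples were whole spleens of 2 pups of strain B6NCrl, taken at age 0 days from the same pregnancy, with no treatment or transgene named and sex not collected. They form 1 group with n = 2, and replicate 1 is pup 2 and replicate 2 is pup 1. Both samples carry the same donor identifier in the labels, while their descriptions name separate pups. They are treated here as separate pups, and if they were not, every SD and fold between them would be technical spread. Total RNA longer than 200 nt was sequenced from 10 ng of input, with spike-ins, giving 33122187 estimated counts in replicate 1 and 32162543 in replicate 2. With 1 group and 1 library per pup there is no contrast between conditions, so no test was made. Differences between the pups compare 2 libraries, and their exact 95% intervals (Clopper-Pearson) cover counting error only.

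The labelled tissue was checked against its markers. All 5 spleen transcription factor markers were detected (at least 1 TPM in both libraries), among them Tlx1 at 15.51 and 24.05 TPM in replicates 1 and 2. Of 7 B lineage markers 6 were detected, and the B cell receptor signalling subunits Cd79b and Cd79a averaged 46.2 and 43.1 TPM. The 5 pancreas markers were present too, with a summed level of 880 TPM in replicate 1 and 311 TPM in replicate 2, and their part in the values below was not tested.

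V segment reads were few. The 213 members together held 1101 estimated counts in replicate 1 and 1408 in replicate 2, which is 33.2 and 43.8 CPM (counts scaled to the library total). Their summed level was 138 and 187 TPM, a mean of 162 ± 34.0 TPM (SD, n = 2), where TPM is abundance normalized for transcript length and library total. In a bulk sample, fewer B cells and less V transcript per cell cannot be told apart. At this depth 3 counts are the upper limit that a count of 0 allows. By the members' summed TPM over their summed counts, 3 counts equal 0.377 TPM in replicate 1 and 0.398 TPM in replicate 2.

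The reads were spread over many segments, each at a low level. A count above 0 was found for 149 members in both libraries, for 11 in replicate 1 alone and for 17 in replicate 2 alone, and 36 members (16.9%) had 0 in both. Over all genes 43.0% had 0 in both libraries. The median member averaged 0.35 TPM, against 0.055 TPM for the median of all genes. Only 28 members (13.1%) reached 1 TPM in both libraries, against 31% of all genes, and 26 had at least 10 estimated counts in both, which 38.1% of all genes had. In replicate 1 alone 36 members reached 1 TPM and in replicate 2 alone 55. The members were thus more often above 0 than the genes at large, and less often above 1 TPM.

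The sequences of some leading segments of each locus show what a V segment contributes to the antibody. Each line gives the last 60 bases of the coding sequence, 5′ to 3′, with the codon of the conserved cysteine that ends the framework before the third complementarity-determining region (CDR3) in capitals. The bases after it are the germline start of CDR3, where joining to a D or J segment takes place. In the 4 heavy chain segments of families Ighv5 and Ighv3 shown, 8 bases follow the codon, and in Ighv1-69 6 bases follow it. In the 3 kappa segments 23 bases follow it, and in Iglv1 24 bases, so the germline V segment itself encodes more of CDR3 in these light chains.
Ighv5-2 (mm10, chr12:113578504-113578563, minus strand): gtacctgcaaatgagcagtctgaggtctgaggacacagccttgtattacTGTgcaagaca
Ighv5-4 (mm10, chr12:113597446-113597505, minus strand): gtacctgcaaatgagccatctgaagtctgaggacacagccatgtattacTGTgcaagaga
Ighv5-6 (mm10, chr12:113625506-113625565, minus strand): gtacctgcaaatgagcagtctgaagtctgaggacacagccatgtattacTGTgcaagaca
Ighv3-6 (mm10, chr12:114288152-114288211, minus strand): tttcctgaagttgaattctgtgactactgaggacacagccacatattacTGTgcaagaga
Ighv1-69 (mm10, chr12:115623161-115623220, minus strand): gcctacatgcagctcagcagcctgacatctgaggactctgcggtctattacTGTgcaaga
Igkv19-93 (mm10, chr6:68736297-68736356, minus strand): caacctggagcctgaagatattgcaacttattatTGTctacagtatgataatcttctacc
Igkv1-135 (mm10, chr6:67610449-67610508, plus strand): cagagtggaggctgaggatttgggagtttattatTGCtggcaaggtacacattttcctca
Igkv12-44 (mm10, chr6:69814631-69814690, minus strand): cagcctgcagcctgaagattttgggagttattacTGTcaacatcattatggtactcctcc
Iglv1 (mm10, chr16:19085017-19085076, minus strand): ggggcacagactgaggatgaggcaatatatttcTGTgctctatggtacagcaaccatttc

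The 3 loci held unequal shares of the V signal. Igkv held 49.8% of the members' summed TPM in replicate 1 and 45.4% in replicate 2, with 45.5% of the members. Ighv held 35.3% and 42.5%, with 53.1% of the members. Iglv held 14.9% and 12.1% with only 1.41% of the members. As shares of estimated counts, Ighv stood at 36.3% (95% interval 33.5 to 39.3) in replicate 1 and 43.7% (41.1 to 46.4) in replicate 2, intervals that do not overlap. The kappa sum exceeded the heavy chain sum in both pups, by 1.41 times in replicate 1 and 1.07 times in replicate 2. It exceeded the lambda sum 3.35 and 3.75 times.

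In the heavy chain locus the summed level was 48.9 TPM in replicate 1 and 79.2 TPM in replicate 2. Of the 113 Ighv members 9 (7.96%) were detected, 20 had 0 counts in both libraries, and the median member averaged 0.32 TPM. The leading pair lay apart in the locus. The leading member, Ighv5-4 (chr12:113597446-113597977, minus strand, 2 exons), is the third V segment from the J segments, 168 kb from Ighj1, and stood at 3.41 TPM in replicate 1 and 6.09 TPM in replicate 2 from 35 and 59 counts. Ighv3-6 (chr12:114288152-114288582), the member of family Ighv3 with the highest level, is number 39 in order, 858 kb away, and stood at 4.30 and 4.69 TPM from 34 and 35 counts. The levels of Ighv5-4 and Ighv3-6 overlap between the libraries, so their order does not hold beyond that spread.

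Family Ighv5, whose members lie nearest to the D and J segments, supplied 4 of the 8 Ighv members with the highest mean level, Ighv5-4 among them. Ighv5-2, the V segment nearest to the D and J segments (149 kb from Ighj1), had 2.25 TPM in replicate 1 and 4.10 TPM in replicate 2. Ighv5-6, number 5 in order, had 2.37 and 3.44 TPM. Ighv5-12, number 9, had 2.00 and 2.78 TPM. All 3 were higher in replicate 2, and in each library they were below Ighv5-4.

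The remaining Ighv members among the highest belong to the large family Ighv1 and to Ighv10. Ighv1-69, 2193 kb from Ighj1, had 1.75 TPM in replicate 1 and 2.83 TPM in replicate 2. Ighv1-74, 2373 kb away, had 1.66 and 1.49 TPM. Ighv1-26, 1359 kb away, had 1.01 and 2.00 TPM, and Ighv10-1, the leading member of its family, 1.22 and 1.68 TPM. Ighv1-69 was above Ighv1-74 in both libraries, whereas Ighv1-74, Ighv1-26 and Ighv10-1 overlap in their values. Ighv2-2, number 2 in order from the J segments, had 0.75 and 1.46 TPM and thus did not reach 1 TPM in replicate 1, although it lies between Ighv5-2 and Ighv5-4.

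The plot of heavy chain levels along the locus shows these members against the rest.

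**Figure D1:**
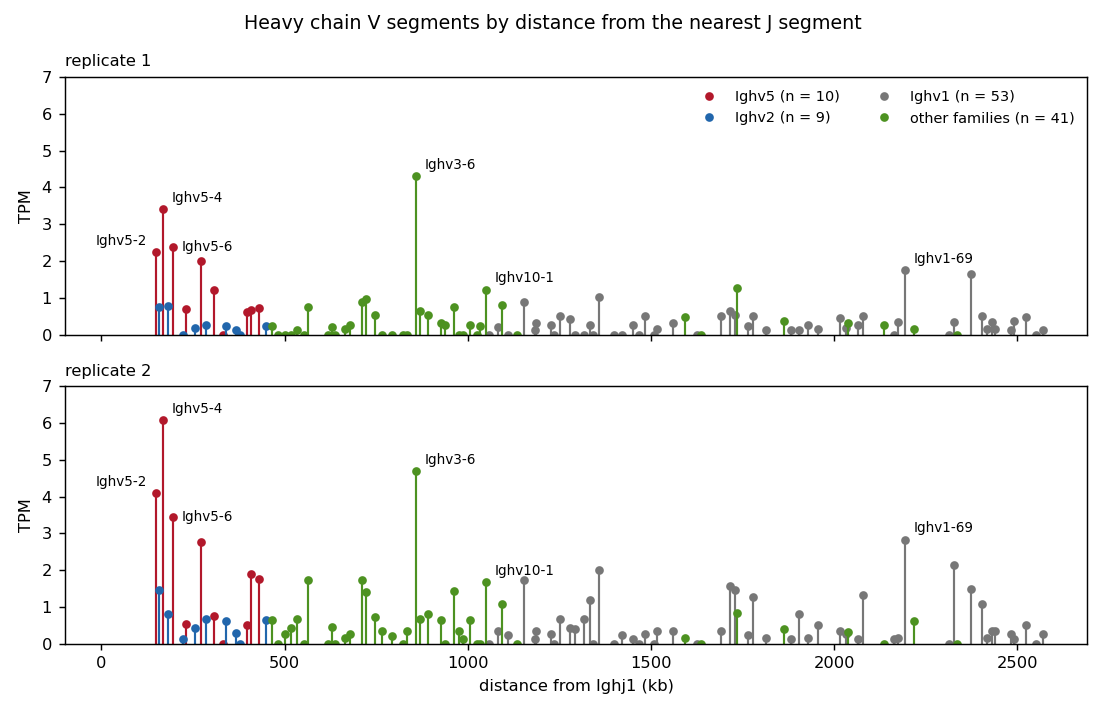
Level of each of the 113 Ighv members (TPM, vertical axis) against its distance from Ighj1 (kb, horizontal axis), with replicate 1 above and replicate 2 below and family in colour. Family Ighv5 forms a cluster of high stems near the J end, reaching 6.09 TPM for Ighv5-4 in replicate 2, while Ighv3-6 stands alone at 858 kb with 4.30 and 4.69 TPM.

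Family Ighv5 held far more of the heavy chain level than its number of members. Its 10 members (8.85% of Ighv) held 28.5% of Ighv TPM in replicate 1 and 27.6% in replicate 2, an average of 1.79 TPM per member, with 4 detected. Family Ighv2, whose 9 members are interleaved with Ighv5, held 5.21% and 6.38%, an average of 0.422 TPM per member, with none at 1 TPM in both libraries. Family Ighv1, the largest with 53 members (46.9% of Ighv), held 33.0% and 35.9%, an average of 0.420 TPM per member, with 3 detected. The average level per member was thus nearly the same in Ighv2 and Ighv1, although Ighv2 lies among the Ighv5 members. The median members differed more, with mean levels of 0.43 TPM in Ighv2 and 0.25 TPM in Ighv1.

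Within Ighv5 the members were uneven. The 4 detected ones are named above. Ighv5-17, Ighv5-16, Ighv5-9-1, Ighv5-9 and Ighv5-15, which were named after their values were seen, ranged from 0.51 to 1.91 TPM over both libraries, and Ighv5-12-4 had 0 in both. The level of Ighv5-16 rested on 6 counts in replicate 1 and 16 in replicate 2. In Ighv2 the highest member was Ighv2-2 and Ighv2-7 had 0 in both. Families Ighv11, Ighv15 and Ighv16 had no count in either library.

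By position the Ighv members were put in 4 bins of 28 or 29 members. The bin nearest to the J segments (149 to 630 kb) held 36.5% of Ighv TPM in replicate 1 and 39.3% in replicate 2. The next bin (639 to 1154 kb) held 27.0% and 24.8%. The third bin (1182 to 1813 kb) held 17.1% in both libraries, and the farthest (1864 to 2570 kb) held 19.4% and 18.9%. The level was thus highest at the J end and did not fall further between the last 2 bins. With family Ighv5 left out and the bins drawn again, a setting chosen after seeing the data, the nearest bin held 21.7%. All 113 Ighv members are annotated on the strand of the J segments.

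At 1 TPM in both libraries the kappa locus had more detected members than the heavy chain locus, 16 of 97 (16.5%). This order depends on the threshold, since at 0.5 TPM 31 Igkv and 32 Ighv members passed. The summed Igkv level was 68.9 TPM in replicate 1 and 84.8 TPM in replicate 2. The leading member, Igkv19-93 (chr6:68736297-68736780, minus strand), the sole member of its family, stood at 4.40 and 5.49 TPM from 34 and 40 counts. Igkv1-135 (chr6:67609713-67610508, plus strand), which lies 3112 kb from Igkj1 near the far end of the locus, stood at 4.22 TPM in both libraries. Igkv12-44 (chr6:69814631-69815154, minus strand), 907 kb away, stood at 4.48 and 3.89 TPM. Igkv19-93 was above Igkv1-135 in both libraries, while Igkv12-44 was the highest of the 3 in replicate 1 and the lowest in replicate 2.

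The next kappa members were close behind and came from different families. Igkv1-117 had 2.63 TPM in replicate 1 and 3.88 TPM in replicate 2, and Igkv10-96 had 2.34 and 3.71 TPM. Igkv16-104, the only member of its family, had 3.06 and 2.57 TPM. Igkv12-46 had 2.05 and 3.25 TPM and Igkv8-27 2.05 and 2.84 TPM. Each of these 5 overlaps in level with its neighbours among them. In families without a member among the 8 highest, the leading detected segment was Igkv4-59 with 2.04 and 2.77 TPM, Igkv9-120 with 2.00 and 2.38 TPM, Igkv14-111 with 1.75 and 1.99 TPM, and Igkv6-15 with 1.15 and 2.17 TPM.

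**Figure D2:**
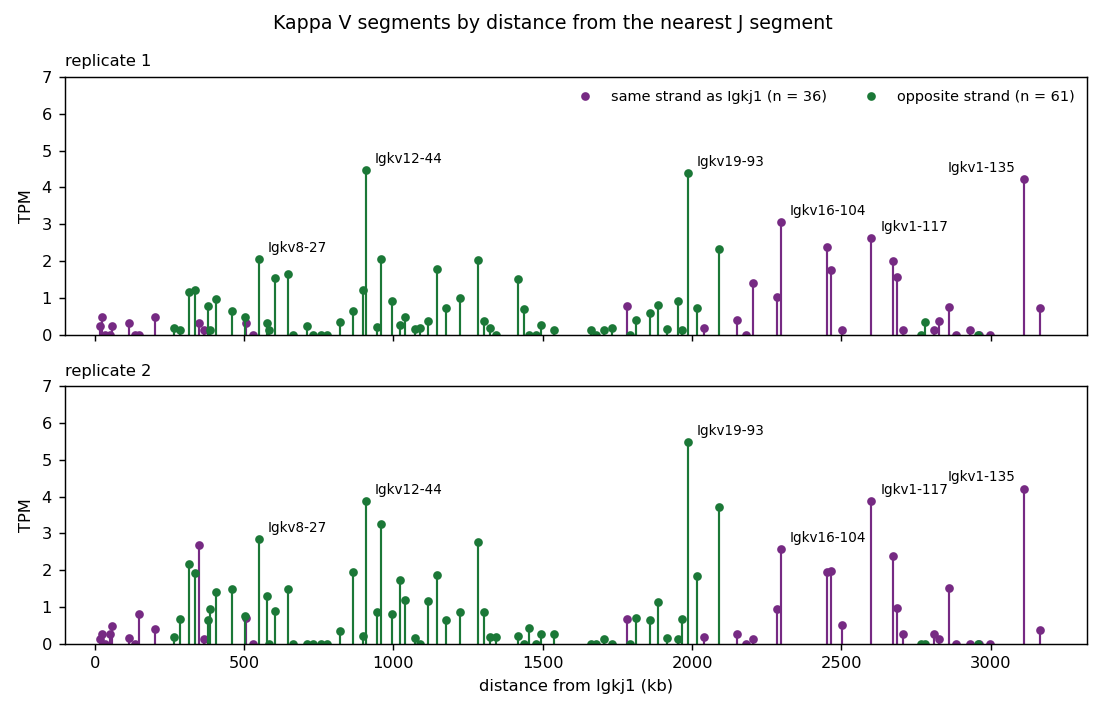
Level of each of the 97 Igkv members (TPM, vertical axis) against its distance from Igkj1 (kb, horizontal axis), with replicate 1 above and replicate 2 below and the strand relative to Igkj1 in colour. High stems are spread over the whole locus, from Igkv8-27 at 550 kb to Igkv1-135 at 3112 kb, and the members next to the J segments are low.

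The kappa segments nearest to the J segments were near the limit of measurement, unlike Ighv5-2 in the heavy chain locus. Igkv3-1, 18.4 kb from Igkj1, had 0.24 TPM in replicate 1 and 0.13 TPM in replicate 2 from 2 and 1 counts. Igkv3-2 had 0.49 and 0.26 TPM, and Igkv3-3 had 0 in both. Family Igkv3 as a whole, with 9 members, held 2.58% and 2.96% of Igkv TPM, an average of 0.238 TPM per member and no member at 1 TPM in both libraries. The nearest of 4 bins of Igkv members (24 members, 18.4 to 578 kb) held 15.3% of Igkv TPM in replicate 1 and 24.0% in replicate 2, so its share varied between the pups. Igkv6-17, named after its values were seen, lies in that bin and rested on 2.5 counts in replicate 1 and 19.74 in replicate 2.

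The other bins of the kappa locus varied less, apart from the farthest. The next one (583 to 1284 kb) held 29.6% and 28.5% of Igkv TPM, and the one after it (1305 to 2090 kb) held 21.6% and 21.1%. The farthest (2151 to 3166 kb) held 33.5% in replicate 1 and 26.4% in replicate 2. Kappa segments lie in either orientation, and those on the strand opposite to the J segments join by inversion instead of deletion. The 36 members on the J strand (37.1% of Igkv) held 38.0% and 34.5% of Igkv TPM, close to their share of the members.

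Kappa families differed in level per member, as the plot of family averages shows. Igkv4, the largest with 26 members, held 17.5% of Igkv TPM in replicate 1 and 17.2% in replicate 2, an average of 0.513 TPM per member. Igkv12, with 6 members, held 12.1% and 12.4%, an average of 1.57 TPM per member. Igkv1, with 10 members, held 14.8% and 12.9%, and Igkv8, with 9, held 10.8% and 11.7%. Igkv6, also with 9, held 6.75% in replicate 1 and 12.2% in replicate 2, the widest gap between the pups among these families. Igkv7 and Igkv18, with 1 member each, had no count. In all, 10 Igkv families and 4 Ighv families had a detected member.

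**Figure D3:**
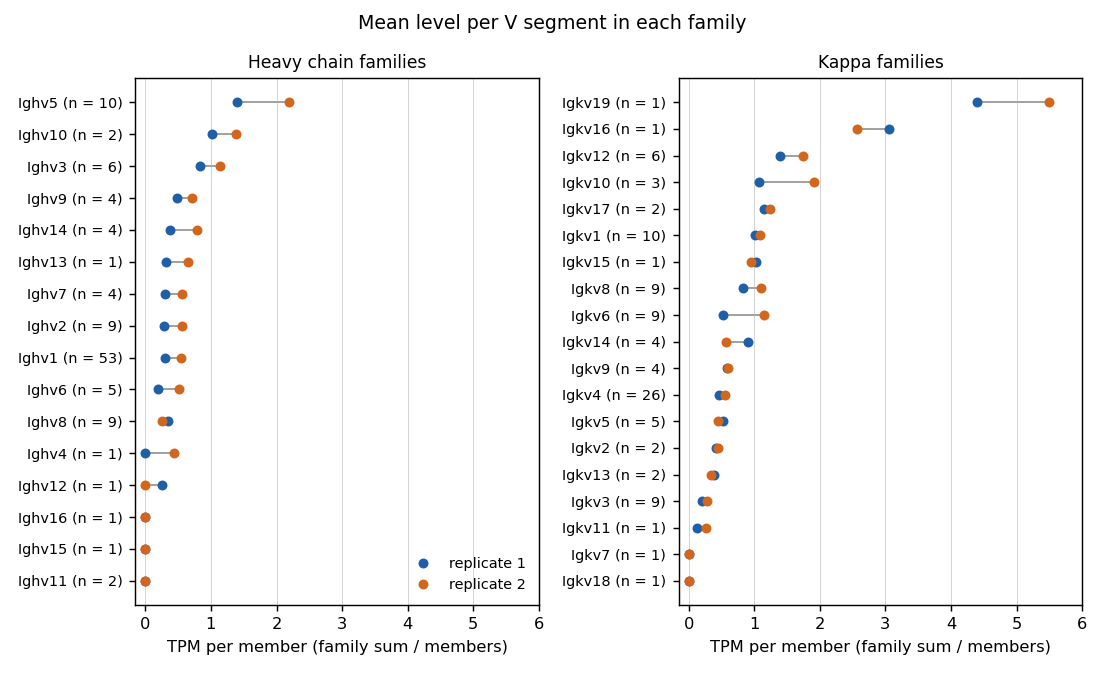
Summed TPM of each V family divided by its number of members (horizontal axis, TPM per member), for heavy chain families at left and kappa families at right, with 1 point per replicate and a line joining them. Ighv5 leads the heavy chain families and the single-member family Igkv19 leads the kappa families at 4.40 and 5.49 TPM. Ighv2 sits near the middle of its panel and Igkv3 in the lower part of its own.

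The level was shared among many segments in both large loci. The 5 highest Ighv members held 29.3% of Ighv TPM in replicate 1 and 26.6% in replicate 2. The 5 highest Igkv members held 26.2% and 25.0% of Igkv TPM. The lambda locus was the opposite, with a single segment holding most of the level.

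Iglv1 had the highest level of any V segment in both libraries. It (chr16:19085017-19085500, minus strand) stood at 16.72 TPM in replicate 1 and 17.96 TPM in replicate 2, a mean of 17.3 ± 0.877 TPM (SD, n = 2), from 132.77 and 134.60 counts. The next member by mean level, Igkv19-93, averaged 4.945 TPM. Iglv1 held 81.2% and 79.4% of the lambda V level. Another annotated gene, 2010309G21Rik, overlaps it and was not analysed here, and no source used here gives the strand setting of the counting.

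The other lambda segments were at the level of the leading heavy chain and kappa segments or below. Iglv2 had 2.32 TPM in replicate 1 and 2.76 TPM in replicate 2. Iglv3 had 1.54 and 1.89 TPM. Iglv1 and Iglv2 are near copies, with 96.9% identity and 11 differences over 351 aligned coding bases, whereas Iglv3 was 55.7% identical to Iglv1. The last 300 coding bases of Iglv1 and Iglv2 hold 8 of these differences, shown in capitals in both lines, and reads that cross none of them could be divided between the copies only by estimation.
Iglv1 (mm10, chr16:19085017-19085316, minus strand): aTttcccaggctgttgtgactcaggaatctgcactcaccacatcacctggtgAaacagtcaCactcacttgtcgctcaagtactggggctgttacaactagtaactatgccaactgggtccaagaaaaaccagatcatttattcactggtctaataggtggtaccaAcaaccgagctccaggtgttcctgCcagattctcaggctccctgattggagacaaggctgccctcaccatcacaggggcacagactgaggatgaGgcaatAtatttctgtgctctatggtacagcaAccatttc
Iglv2 (mm10, chr16:19260401-19260700, minus strand): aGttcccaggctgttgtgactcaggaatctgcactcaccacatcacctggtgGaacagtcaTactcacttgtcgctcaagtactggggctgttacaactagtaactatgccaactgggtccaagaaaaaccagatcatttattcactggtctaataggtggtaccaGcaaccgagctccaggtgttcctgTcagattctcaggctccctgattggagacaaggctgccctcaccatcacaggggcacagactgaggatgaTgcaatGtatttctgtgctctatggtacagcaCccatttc

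Close copies among all members limit how finely the reads could be assigned. For 18 members the nearest other member was at least 98% identical in coding sequence, and none of these reached 1 TPM in both libraries. Together they held 3.08% of the members' TPM in replicate 1 and 5.22% in replicate 2. The closest pair was Ighv1-62-2 and Ighv1-71, with 99.7% identity and 1 difference over 359 aligned bases. For 15 members the deposited posterior SD of the count, a measure of uncertain assignment, was over 50% of the count in a library, and none of them was detected. Among the leading members, Igkv16-104 was 72.9% identical to its nearest, Igkv11-125, and Igkv19-93 was 78.2% identical to its nearest, Igkv10-94, while Ighv5-4 and Ighv5-6 were 95.5% identical.

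The partners of the V segments in recombination were not measured in the same way. All 9 J segments (36 to 54 nt) and all 19 D segments (10 to 29 nt) of the tables had an effective length of 0 and 0 counts, so they could not be quantified. The V segments, at 284 to 480 nt with a median of 351 nt, all had an effective length above 0.

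The constant regions belong to the same chains. Ighm, the constant region of IgM, stood at 68.42 TPM in replicate 1 and 97.40 TPM in replicate 2, and Ighd, that of IgD, at 4.72 and 5.60 TPM. Igkc, the kappa constant region, stood at 97.16 and 140.53 TPM, and the lambda constant region Iglc2 at 3.75 and 7.76 TPM. Of 10 constant regions measured 4 were detected, and of the switched classes Ighg2b led with 0.07 and 0.22 TPM. Summed V level per constant region level was 0.715 and 0.813 for Ighv over Ighm, and 0.709 and 0.603 for Igkv over Igkc. For Iglv over Iglc2 it was 5.49 and 2.91, but Iglc1, Iglc3 and Iglc4 were not analysed here, so this ratio lacks the other lambda constant regions. Ighv and Igkv thus had less level, per unit of length, than Ighm and Igkc.

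Between the littermates the V loci moved unequally. After TMM scaling of counts, a scaling that centres the bulk of genes, the Ighv sum was 1.48 times higher in replicate 2 (95% interval 1.30 to 1.68). The Igkv sum was 1.11 times that of replicate 1 (0.990 to 1.25), and the Iglv sum was 0.996 times it (0.799 to 1.24). By library size the folds were 1.59, 1.19 and 1.07, and by TPM 1.62, 1.23 and 1.10, so the direction for Iglv depends on the scaling. The interval for Ighv lies above that for Igkv. Of the 4 detected constant regions 3 were higher in replicate 2 as well, Ighm 1.29 times (1.24 to 1.35), Igkc 1.31 times (1.19 to 1.45) and Iglc2 1.87 times (1.36 to 2.60). The fold of Ighd was 1.07 (0.904 to 1.28), an interval that spans 1.

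Several B lineage markers were also higher in replicate 2, among them Cd79a 1.25 times (1.17 to 1.33), Cd79b 1.34 times (1.25 to 1.44) and the B cell surface protein gene Ms4a1 1.34 times (1.23 to 1.47). The intervals of Ighv and Igkv both overlap those of Cd79a, Cd79b, Ms4a1, Ighm and Igkc. The summed spleen transcription factor markers were higher in replicate 2 too, 1.19 times (1.16 to 1.22), with Tlx1 at 1.41 times (1.29 to 1.53). The summed pancreas markers moved the other way, 0.314 times in replicate 2 (0.306 to 0.323). The part of either in these folds was not tested.

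**Figure D4:**
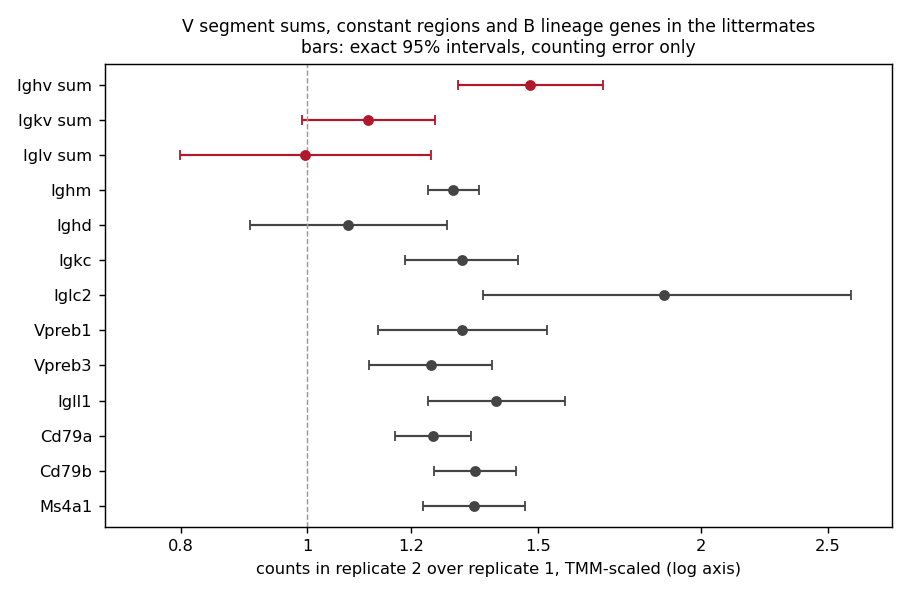
Scaled counts in replicate 2 over replicate 1 (horizontal log axis), with the 3 V locus sums in red. Grey points are the constant regions Ighm, Ighd, Igkc and Iglc2, and the B lineage genes Cd79a, Cd79b and Ms4a1. Vpreb1, Vpreb3 and Igll1, from the surrogate light chain list, are grey too. Bars are exact 95% intervals that cover counting error only. The Iglv sum at 0.996 lies left of every plotted grey point, and the Ighv sum at 1.48 lies right of all those plotted but Iglc2.

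For single members the counts allow little. A mean count of at least 20 was reached by 12 members of 15499 such genes. Their median log2 ratio of replicate 1 over replicate 2 was -0.27, against -0.0068 over all genes at that count. Of the 12, 7 were higher in replicate 2 (58.3%), against a background of 51.1% of all genes. None of the 12 was at least 2-fold apart in either direction, where 0.871% of all genes were at least 2-fold higher in replicate 1 and 0.897% in replicate 2. The ratios ran from -0.67 for Ighv5-2 to 0.36 for Igkv16-104. For Ighv5-2 the fold in replicate 2 was 1.66 (0.898 to 3.14), which spans 1, and for Ighv5-4 it was 1.62 (1.05 to 2.54).

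The profile over members was broadly shared by the pups. Across the 213 members Spearman's rho between the libraries was 0.778 and Pearson's r of log2(TPM + 1) was 0.861. These are descriptions across genes, which are not independent replicates, and the members share each library's depth and, in part, coding sequence.

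Genes that act on the V segments were measured too. Of 13 recombination genes 10 were detected, led by the DNA-bending protein Hmgb1 at 779 TPM and the end-joining Ku subunits Xrcc6 at 42.3 and Xrcc5 at 13.5 TPM. The recombinase genes themselves were low, with Rag1 at 0.79 and 1.36 TPM and Rag2 at 0.94 and 0.98 TPM in replicates 1 and 2. Dntt, which adds untemplated bases at the joints, had 0.18 and 0.46 TPM. All 4 surrogate light chain genes, whose products stand in for a light chain in precursor B cells, were detected, led by Vpreb3 at 42.7, Igll1 at 24.1 and Vpreb1 at 18.2 TPM.

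The factors of V promoters and of locus folding were present at different levels. All 3 octamer factor genes were detected, with Pou2f1 at 8.10, the B cell coactivator gene Pou2af1 at 4.89 and Pou2f2 at 3.69 TPM. Of 6 genes of locus contraction and looping 5 were detected, led by Ctcf at 82.2, the cohesin subunit Rad21 at 48.1 and Ikzf1 at 34.9 TPM, and the exception was Pax5 at 0.87 and 1.41 TPM. Hmgb1, the Ku subunits, Ctcf and Rad21 are also expressed by other cells.

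Markers of cells that could carry V transcripts differed in level. Of 6 B progenitor markers 3 were detected. Of 7 plasma cell markers 3 were detected, led by Xbp1 at 72.4, Mzb1 at 17.9 and Sdc1 at 6.80 TPM, which other cells also express. Jchain, the joining chain of secreted IgM, had 0 TPM in replicate 1 and 0.21 TPM in replicate 2, and the plasma cell receptor gene Tnfrsf17 had 0 and 0.05 TPM. Of 4 B1 cell markers none was detected at 1 TPM in both libraries, with Bhlhe41 highest at 0.91 and 1.11 TPM. Of 4 marginal zone markers 2 were detected, Cd9 at 73.2 and Cd1d1 at 16.5 TPM. The others were low, with S1pr3 at 0.77 and 1.02 TPM and Cr2 at 0.54 and 0.55 TPM in replicates 1 and 2.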

How the data were processed

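Both libraries came with gene and transcript tables that, per the text listing the authors deposited, use GENCODE M4 models on mm10. The authors' expected counts are estimated counts, since a read that fits several genes was split among them. TPM, posterior mean TPM and the posterior SD of each count were deposited by the authors as well. No source used here gives the aligner, the quantifier or its strand setting. Replicate numbers and pups follow the labels.

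Names, classes, coordinates and coding sequences came from GENCODE M21 on the same build (42462 genes matched by identifier). Of 218 annotated V genes 5 were unmatched and not analysed here. Printed sequences come from the M21 transcripts. No member was in the RefSeq promoter table, so promoters were not analysed here. Identity was computed from global alignments (Biopython 1.88).

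With edgeR 4.0.16 in R 4.3.3, estimated counts were rounded and TMM-scaled, with log2 CPM at a prior count of 2 where the mean count was 20 or more. The scaling and log2 ratios alone were checked on simulated counts, with the changed genes drawn from higher counts than most members had. Shares, intervals and bins were not checked in this way. Python 3.11.15 with pandas 2.3.3 and scipy 1.17.1 was used for shares and intervals. The reads carry no stated molecular identifiers, so they may not be independent molecules.

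Named members were the 8 highest in Ighv and Igkv by mean TPM, all Iglv, the 3 nearest to J in Ighv and Igkv, the highest of each family with a detected member, any at least 2-fold apart, and the 3 highest of each list. The values of 1 list are not reported here. Others were chosen after their values were seen. The members and lists were chosen with earlier results of these data known. Alternatives were other thresholds, units, bins, scalings (DESeq2 1.42.0 among them) and single libraries.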

Additional observations from a re-analysis of the deposited data

How the results depend on the processing

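The number of members is set by the threshold and the depth. At 0.5 TPM 66 members (32 Ighv, 31 Igkv) passed in both libraries, and at 2 TPM 17 (5 and 10). In a single library 36 to 55 passed (11 to 25 Ighv, 22 to 27 Igkv). Posterior mean TPM, which moves low members up, gave 11.3% for the Iglv share of all members, 29.3% for Ighv5 with Ighv2 and 38.1% for Ighv1 as shares of Ighv, 33.8% for the nearest of the 4 Ighv bins, and 22.0% and 22.4% for the 5 highest members of Ighv and Igkv. Estimated counts gave 36.5% for Ighv5 with Ighv2 and 40.6% for the nearest bin. Without the highest member the shares were 53.6% for Igkv and 3.18% for Iglv, 28.6% for Ighv5 with Ighv2, 37.2% for Ighv1 and 33.0% for the nearest bin. Without members of uncertain assignment Ighv5 with Ighv2 held 34.1%. With 5 Ighv bins the nearest held 34.7%, with 4 bins of equal span 43.5%, and with 4 bins without Ighv5, added after seeing the data, 21.7%. The median log2 ratio between the pups was 0.031 at a mean count of at least 50, which leaves 1 member, and 0 with no filter (213 members). Members at least 2-fold apart numbered 2 of 34 at a mean count of at least 10, Ighv5-16 and Igkv6-17, and 29 of 213 with no filter. The share of all genes this far apart was taken only at a mean count of at least 20. These numbers thus have no background at their own filters and are not read as particular to the members. Where the setting's own construction does not show it, the cause of a shift was not tested. No paired analysis was possible because the labels form 1 group. The promoter octamer alternatives were not run, since no member was in the promoter table. Of the values computed for the main results under alternatives, 66 kept their direction and stayed within the spread or 1.5 times a count, 28 moved and 2 reversed. The 66 include every share taken from a single library. Such a share always lies within the SD of both libraries, so these values could not move and show nothing about stability.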

Other observations

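V pseudogenes of the same loci were nearly silent. The 77 annotated immunoglobulin V pseudogenes held 13 estimated counts in replicate 1 and 34 in replicate 2, or 1.69 and 4.67 TPM in sum. None reached 1 TPM in both libraries and 71 had 0 in both. The average pseudogene stood at 0.0413 TPM, against 0.763 TPM for the average V gene. The exceptions, chosen after their values were seen, were a pair of Ighv1 pseudogenes. Ighv1-41 stood at 0.83 and 2.92 TPM in replicates 1 and 2, from 6 and 20 counts. Ighv1-2 stood at 0.57 and 1.21 TPM, from 5 and 10 counts.

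T cell receptor V genes, the segments with the same role in T cells, were lower than the immunoglobulin V genes. The 132 measured ones held 51.99 estimated counts in replicate 1 and 69.01 in replicate 2, or 6.16 and 8.13 TPM in sum. None reached 1 TPM in both libraries and 99 had 0 in both. The T lineage markers were present, with Lck at 6.41 and 6.78 TPM and Cd3d at 3.27 and 3.63 TPM, and 4 of 7 were detected.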
